A study of Homo sapiens with 12 samples.

Results

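In the Ewing sarcoma lines A673 and TC32, 76 genes were lower after 6 hours with 100 nM THZ531 than with DMSO and were no lower still at 500 nM. They were drawn from 16937 genes measured on arrays and made up 0.449% of them. A gene was taken when its DMSO mean was at least 7 on the deposited log2 scale in both lines. Its 100 nM mean had to lie at least 0.7 under the DMSO mean in both lines after each array was centred on its own median. Its 500 nM mean had to be at or above its 100 nM mean in both lines as deposited. Genes whose symbols start with ZNF, RNF, TRIM, HERC, FBXO or FANC, and 1 further gene, were left out, which removed 3 genes that met every other part. The genes were thus chosen by their measured values at DMSO, 100 nM and 500 nM, and their low level at 100 nM and the order of the doses are described here without a test.

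THZ531 (spelled THZ_5_31_1 in the labels) binds CDK12 and CDK13 covalently and blocks them. These kinases pair with cyclin K and phosphorylate the tail of RNA polymerase II while it elongates. Loss of CDK12 activity is known above all for lowering long genes and genes of the DNA damage response, in part through early cleavage and polyadenylation within introns. Ewing sarcoma is a tumour of bone and soft tissue driven by the chimeric transcription factor EWS/FLI in these lines.

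Both lines were grown in DMEM with serum and received DMSO, THZ531 at 100 nM or THZ531 at 500 nM for 6 hours. Each of the 6 groups had 2 arrays, numbered as biological replicates, and no label says whether they came from separate cultures. A dose of 100 nM also stands in the labels of the DMSO samples and was ignored there. External ERCC RNA was added to the total RNA of every sample, so all groups share it. Each line stands for 1 tumour, and the arrays measured bulk RNA, in which fewer cells and less RNA per cell cannot be told apart.

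All 9 Ewing sarcoma markers measured passed the filter on low values, among them CD99 with DMSO means of 13.8 in A673 and 13.2 in TC32. Of the markers of other cell types, 3 of 6 haematopoietic and 2 of 8 epithelial genes passed this filter. So did 5 of 9 endothelial or fibroblast and 6 of 9 neural genes. Among those that passed, TUBB3 had DMSO means of 11.892 in A673 and 11.014 in TC32, and COL3A1 10.734 and 8.98. PTPRC, EPCAM, CDH1 and CDH5 were among those that did not. Whole arrays shifted with treatment. The array median, averaged over replicates, moved by -0.62 from DMSO to 100 nM and by -0.83 from DMSO to 500 nM in A673, and by -0.20 and -0.79 in TC32. From 100 to 500 nM it moved by -0.21 in A673 and -0.59 in TC32, so a gene that read the same at both doses lay higher against its array at 500 nM. Replicates correlated at 0.991 to 0.997, and their array medians differed by at most 0.123, except in A673 under DMSO, where replicate 1 lay 0.248 above replicate 2, and in A673 at 500 nM, where it lay 0.466 above. Values called centred below are relative to the array median, and all others are as deposited.

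After centring, the median of the 76 genes lay 0.94 under DMSO in A673 at 100 nM and 1.495 under it in TC32, which left 52.0% and 35.5% of the DMSO level. At 500 nM the centred median lay 0.47 and 0.41 under DMSO, at 72.3% and 75%. As deposited, the levels left were 33.8% and 30.8% at 100 nM and 40.6% and 43.3% at 500 nM. As deposited, all 76 genes had means below DMSO at both doses in both lines. The same was counted over the 7137 genes with a DMSO mean of at least 7 in both lines. At 100 nM, 6813 of these were below DMSO in A673 and 4432 in TC32, and at 500 nM 7062 and 6871. After centring, 12 of the 76 were at or above DMSO at 500 nM in at least 1 line. That was 4 in A673 and 10 in TC32, against 3462 and 3495 of the 7137. The rule used these means, so nothing is read from the counts. On the log2 scale, the deposited 500 nM means of the 76 regained a median of 19.2% of the 100 nM loss in A673 and 17.9% in TC32. Shares regained, here and below, are ratios of log2 differences, whereas the percents of the DMSO level are on the linear scale. Over the 7137 genes with a DMSO mean of at least 7 in both lines, the deposited median was 0.55 under DMSO at 100 nM and 0.85 under it at 500 nM in A673, and 0.13 and 0.81 under it in TC32.

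**Figure D1:**
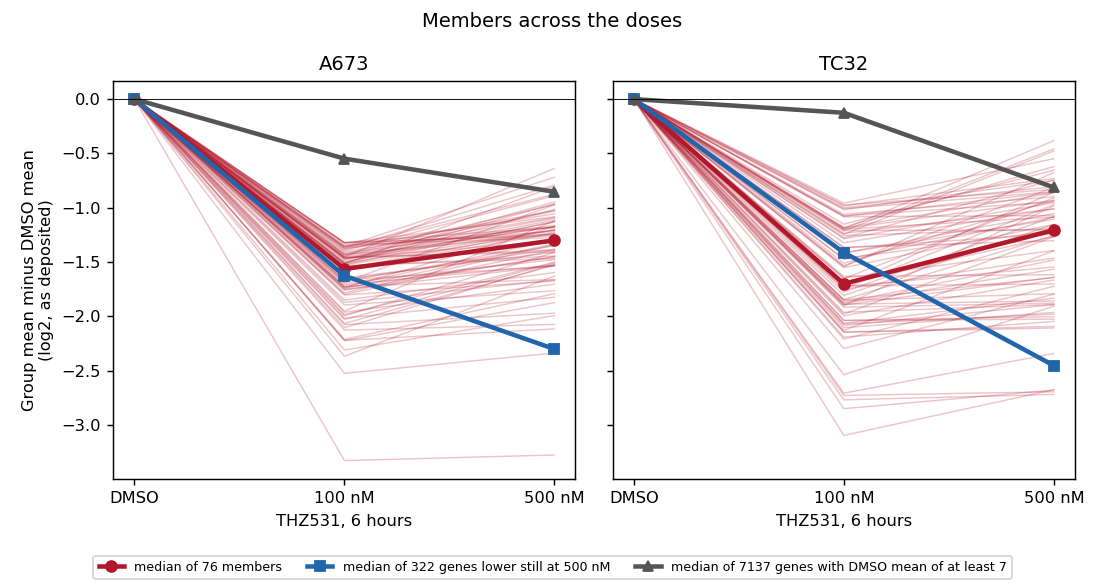
Deposited group mean minus DMSO mean on the log2 scale (vertical axis) at each dose (horizontal axis), with 1 thin line for each of the 76 genes and thick lines for medians. The median of the 76 genes goes from -1.56 at 100 nM to -1.30 at 500 nM in A673 and from -1.70 to -1.21 in TC32, while the median of 322 genes lower at both doses goes on down to -2.30 and -2.45.

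The order of the doses set these genes apart from most genes that were low at 100 nM. With the same symbols left out, 479 genes met the first 2 parts of the rule. Of these, 322 had a lower mean at 500 than at 100 nM in both lines, 81 had a different order in each line, and 76 were at or above the 100 nM mean in both. The size of the difference varied: 52 of the 76 had a 500 nM mean at least 0.1 above the 100 nM mean in both lines, 37 at least 0.2 and 11 at least 0.5.

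**Figure D2:**
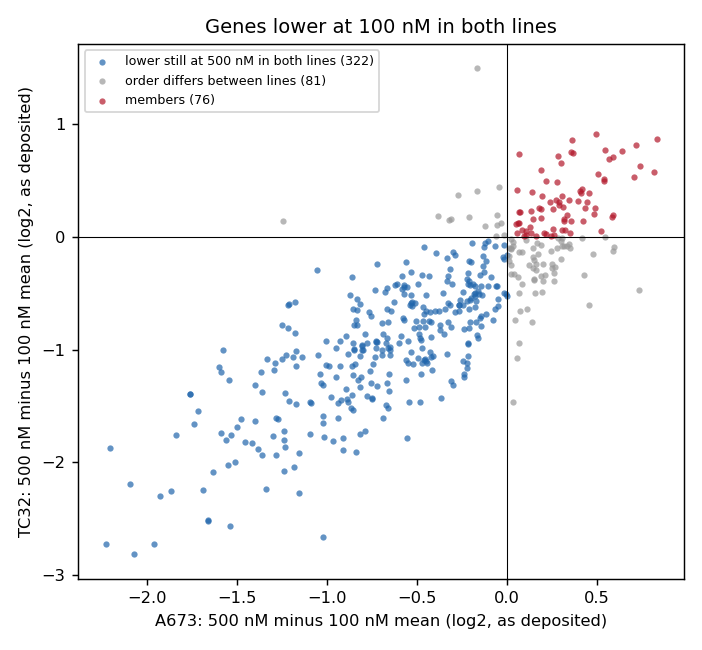
Deposited 500 nM mean minus 100 nM mean in A673 (horizontal axis, log2) and TC32 (vertical axis, log2) for the 479 genes low at 100 nM in both lines. The 76 genes fill the upper right corner with differences from 0.05 to 0.83 in A673 and from 0.005 to 0.92 in TC32, and the 322 genes lower still at 500 nM reach down to -2.23 and -2.82.

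Single arrays show how far that order holds. Both 500 nM arrays lay above both 100 nM arrays for 30 of the 76 genes in A673 (2.78% of all 10162 genes tested), for 53 in TC32 (4.60% of all) and for 26 in both lines (1.21% of all). The rule used these means, so nothing is read from the shares. Apart in neither line were 19 genes, 27 were apart in TC32 alone and 4 in A673 alone. In A673 the order leaned on replicate 1 at 500 nM: all 76 genes lay at or above the 100 nM mean on that array, with a median of 0.59 over it. On replicate 2 only 46 did, with a median of 0.05, and without replicate 1 the rule found 46 genes. Replicate 1 lay higher as a whole array, by 0.466 in its median. After centring, the median of the 76 genes was 1.36 and 1.24 on these 2 arrays. It was 0.79 and 0.77 on the A673 arrays at 100 nM. Doses called apart or overlapping, here and below, are on deposited values and carry such shifts of whole arrays. In TC32, 71 and 65 genes lay at or above the 100 nM mean on the 2 arrays.

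Against DMSO the arrays did not overlap. For all 76 genes, both 500 nM arrays lay below both DMSO arrays in both lines, as they did for 78.0% of the genes tested. In limma on centred values (adjusted p under 0.05, Benjamini-Hochberg over all genes tested), 54 of the 75 genes that passed the filter were lower at 500 nM than under DMSO in A673 and 0 were higher (also 0 at an unadjusted p under 0.05), against 27.4% lower and 29.6% higher among all genes. In TC32, 44 were lower and 3 higher, against 30.7% lower and 41.3% higher among all. The higher ones included SANBR (0.41, SE 0.178) and DHTKD1 (0.33). As deposited, 75 and 74 were lower (82.5% and 62.9% of all). The rule used the DMSO and the 500 nM means of both lines, so these counts are a description of the chosen genes and no test of them. TRMT1L, whose mean over all arrays was under the filter level of 5.94, was the only one of the 76 not tested.

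Some readings at 100 nM were low, and whether this limited any fall was not tested. At 100 nM the group mean was under 5.94 for 7 genes in A673 and 16 in TC32, for 5 of them in both lines, and 58 genes were above it in both. INTS6, MMS22L in A673, METTL23, TUBGCP3, GINS1 and PUS7 were among those read above it, while KLHL22, TRMT1L and ANKRA2 were under it in both lines.

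The rule's edges were as follows. The genes closest inside the DMSO limit were SANBR (7.03), UQCC1 (7.15) and CCDC9B (7.18), and WDR19 (6.97), PPP1R10 (6.96) and RPGRIP1L (6.90) were just outside. For the 100 nM difference in the weaker line, EPHA3 (-0.70), SDHAF4 (-0.70) and TTC17 (-0.70) were just inside, and DOCK4 (-0.6995), DFFA (-0.69) and CPSF2 (-0.69) just outside. For the order of the doses in the lower line, CC2D2A (0.0045), TTC17 (0.012) and IL10RB (0.012) were inside and DNAJC30 (-0.0015), ATG10 (-0.007) and ATR (-0.009) outside. Each edge cut through a continuous range.

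By their known roles, which were assigned after the 76 genes were known, 17 work in transcription or chromatin. Roles were assigned to the 76 alone, so the counts of role groups, here and below, have no share over all genes beside them. They order the account, and nothing is read from their size. INTS6 had the largest centred difference from DMSO of all 76 at 100 nM, averaged over both lines. It is a subunit of Integrator, the complex that cleaves nascent RNA near promoters and at the ends of small nuclear RNAs. In A673 it read 9.68 and 9.63 under DMSO, 6.43 and 6.21 at 100 nM and then 6.69 and 6.06 at 500 nM. Its readings in TC32 were 9.15 and 9.03, then 6.33 and 6.39, then 6.45 and 6.34. Both treated groups lay far below DMSO in both lines and overlapped each other. After centring, 15.3% of the DMSO level was left in A673 and 17.4% in TC32 at 100 nM, and 18.4% and 26.8% at 500 nM. Its reading was about the same at both doses.

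The INTS6 promoter is shown because it is that of the gene furthest under DMSO at 100 nM, from 250 bases before to 50 after the start, 5′ to 3′ on the gene's strand (RefSeq, GRCh38.p14, chr13:51452987-51453286, minus strand). Capitals mark an E-box (CACGTG) and GC boxes (GGGCGG or its reverse complement CCGCCC).
INTS6: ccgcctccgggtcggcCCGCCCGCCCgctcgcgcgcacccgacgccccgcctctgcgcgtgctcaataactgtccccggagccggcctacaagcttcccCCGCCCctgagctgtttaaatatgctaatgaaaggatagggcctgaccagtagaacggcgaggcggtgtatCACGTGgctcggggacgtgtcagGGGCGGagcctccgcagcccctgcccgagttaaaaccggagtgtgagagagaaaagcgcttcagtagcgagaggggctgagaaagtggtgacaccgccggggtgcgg

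ICE2 and GTF2H1 belong to complexes that act on RNA polymerase II. ICE2 is a subunit of the little elongation complex, which serves small nuclear RNA genes. It read 8.68 and 8.86 under DMSO in A673, 6.75 and 6.57 at 100 nM and then 7.44 and 7.06 at 500 nM. In TC32 the readings were 8.37 and 8.26, 6.21 and 6.24, and 6.44 and 6.40. The 3 groups did not overlap in either line, with 500 nM between the others. GTF2H1, the p62 subunit of the general factor TFIIH, read 9.58 and 9.57 in A673, then 7.62 and 7.48, then 8.30 and 7.83. In TC32 it read 9.21 and 8.93, then 6.999 and 6.85, then 7.13 and 6.82, so its doses were apart in A673 and overlapped in TC32.

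Others of this kind were moderately low. RPRD1A, which binds the polymerase tail, was 0.87 and 0.95 under DMSO at 100 nM after centring (A673 and TC32), and TAF12, a subunit of TFIID and SAGA, 0.82 and 1.08. RPAP1, which helps assemble the polymerase, was 0.74 and 1.21 under it. TTF2, which releases polymerase from DNA, was 0.71 and 1.16 under it, and its doses overlapped in both lines. RPRD1A was the one of these 4 with the doses apart in both lines: 8.04 and 7.79 at 100 nM against 8.51 and 8.40 at 500 nM in A673, and 8.05 and 8.09 against 8.51 and 8.62 in TC32.

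Chromatin proteins included METTL23, which methylates arginine in histone H3, JADE2, a scaffold of HBO1 acetyltransferase complexes, CBX6, a Polycomb chromodomain protein, and PAGR1, a subunit of the KMT2C and KMT2D complexes. METTL23 read 9.96 and 10.08 under DMSO in A673, 8.06 and 7.82 at 100 nM and then 8.34 and 7.75 at 500 nM. TC32 gave 9.39 and 9.41, then 6.54 and 6.73, then 6.73 and 6.63. As for INTS6, its 2 doses overlapped in both lines. JADE2 was higher in TC32 than in A673 under DMSO (9.31 and 9.18 against 7.39 and 7.53) and read 6.49 and 6.58 at 100 nM and 6.99 and 6.81 at 500 nM there. In A673 its readings of 5.67 and 5.21 at 100 nM and 6.07 and 5.198 at 500 nM overlapped. CBX6 and PAGR1 were 0.89 and 1.03 under DMSO at 100 nM in A673 and 1.65 and 1.21 in TC32 after centring.

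Sequence-specific factors and co-factors made up the rest of the group. EYA3, a phosphatase and transcriptional co-activator, read 10.28 and 9.76 in A673, then 8.17 and 7.88, then 8.91 and 8.31, and 9.08 and 8.66, 7.18 and 7.11, and 7.34 and 7.31 in TC32. Its 3 groups were apart in both lines. TCFL5, a basic helix-loop-helix factor, regained more in TC32 (7.88 and 7.71, then 6.12 and 6.39, then 7.24 and 7.003) than in A673 (8.66 and 8.54, then 7.14 and 6.93, then 7.67 and 7.12). That is 56.1% of the deposited log2 loss in TC32 against 22.9% in A673, and this difference was not tested. RFX5, a factor of MHC class II promoters, GATAD1 and THAP8 were 0.74, 1.09 and 1.07 under DMSO at 100 nM in A673 and 1.35, 1.69 and 1.68 in TC32 after centring.

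ANKRA2, an ankyrin-repeat protein that binds class IIa histone deacetylases, read 7.48 and 7.81, then 5.79 and 5.71, then 6.00 and 5.77 in A673. In TC32 it read 7.25 and 7.20, then 4.96 and 5.201, then 4.89 and 5.35, with both doses under the filter level and overlapping. Its promoter is shown because the start of UTP15 lies 104 bases away on the other strand and the pair behaved differently (RefSeq, GRCh38.p14, chr5:73565590-73565889, minus strand). Capitals mark a GC box (GGGCGG) and a CCAAT box on the other strand (ATTGG).
ANKRA2: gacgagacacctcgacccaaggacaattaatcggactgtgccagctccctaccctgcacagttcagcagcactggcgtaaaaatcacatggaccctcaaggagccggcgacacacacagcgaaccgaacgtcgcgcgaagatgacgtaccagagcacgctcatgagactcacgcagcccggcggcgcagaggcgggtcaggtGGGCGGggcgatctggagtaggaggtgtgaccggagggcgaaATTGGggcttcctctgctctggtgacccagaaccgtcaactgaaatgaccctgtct

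UTP15, which serves the processing of ribosomal RNA, was not among the 76. In A673 it read 8.99 and 8.90 under DMSO, 8.53 and 8.68 at 100 nM and then 6.93 and 6.76 at 500 nM. The TC32 arrays gave 8.24 and 7.95, then 8.56 and 8.53, then 5.65 and 5.92. After centring it lay 0.28 and 0.65 above DMSO at 100 nM, the dose at which ANKRA2 lay 1.28 and 1.94 under it, and its large drop came between the doses.

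The second role group held 12 genes of DNA replication, repair, telomeres and mitosis, and it was low at 100 nM by a centred median of 1.16 in A673 and 1.88 in TC32. MMS22L, which with TONSL repairs stalled replication forks, had both a deep low at 100 nM and a clear return. It read 9.20 and 8.96 under DMSO in A673, 6.75 and 6.68 at 100 nM and then 7.79 and 7.12 at 500 nM. In TC32 it read 8.48 and 8.34, then 5.74 and 6.01, then 6.48 and 6.53. The 3 groups were apart in both lines, with 29.8% and 19.9% of the DMSO level left at 100 nM and 57.6% and 46.2% at 500 nM after centring.

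The shelterin proteins TERF2, which binds telomeric repeats, and TINF2, which joins the shelterin subunits, were both among the 76. TERF2 read 8.88 and 8.73, 6.52 and 6.47, and 7.05 and 6.57 in A673, and 7.98 and 7.72, 5.79 and 5.71, and 5.88 and 5.90 in TC32. Its doses were apart in both lines, though by only 0.14 between the means in TC32, where all treated readings were under the filter level. TINF2 read 8.85 and 8.78, 7.06 and 6.96, and 7.41 and 6.86 in A673, and 8.94 and 8.82, 6.79 and 6.84, and 6.88 and 6.92 in TC32, where its doses were apart by 0.09.

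PMS1, a MutL homologue of mismatch repair, read 9.31 on both DMSO arrays in A673, 7.17 and 7.03 at 100 nM and then 7.75 and 7.29 at 500 nM. Readings in TC32 were 8.68 and 8.53, then 6.23 and 6.60, then 6.48 and 6.63. The doses were apart in A673 and overlapped in TC32. SMARCAL1, a helicase that anneals DNA at stalled forks, was 1.23 and 1.76 under DMSO at 100 nM after centring, and its doses overlapped in both lines. PRIMPOL, which restarts synthesis ahead of lesions, was 1.05 and 1.86 under it, and SHPRH, which ubiquitinates PCNA, 1.05 and 1.55. UVSSA, which brings TFIIH to polymerase stalled at lesions, was 0.91 and 1.03 under it.

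GINS1, a subunit of the replicative helicase, read 12.003 and 11.76 in A673, then 10.21 and 10.05, then 10.59 and 10.10, and 10.60 and 10.48, 8.15 and 8.35, and 8.78 and 8.71 in TC32. Its doses were apart in TC32 alone. ASF1B, a chaperone of histones H3 and H4, read 9.03 and 8.83, 7.23 and 7.19, and 7.49 and 7.05 in A673. In TC32 it read 7.89 and 7.82, then 5.58 and 5.86, then 6.43 and 6.48, so the return was 0.73 there and 0.06 in A673. The mitotic genes were TUBGCP3, a subunit of the gamma-tubulin ring complex, and KNTC1, a kinetochore protein of the spindle checkpoint. TUBGCP3 read 9.75 and 9.63, 7.49 and 6.84, and 7.45 and 7.26 in A673, and 9.18 and 9.34, 6.31 and 6.51, and 6.70 and 6.46 in TC32. Its mean difference from DMSO at 100 nM was the second largest of the 76, and its doses overlapped in both lines.

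**Figure D3:**
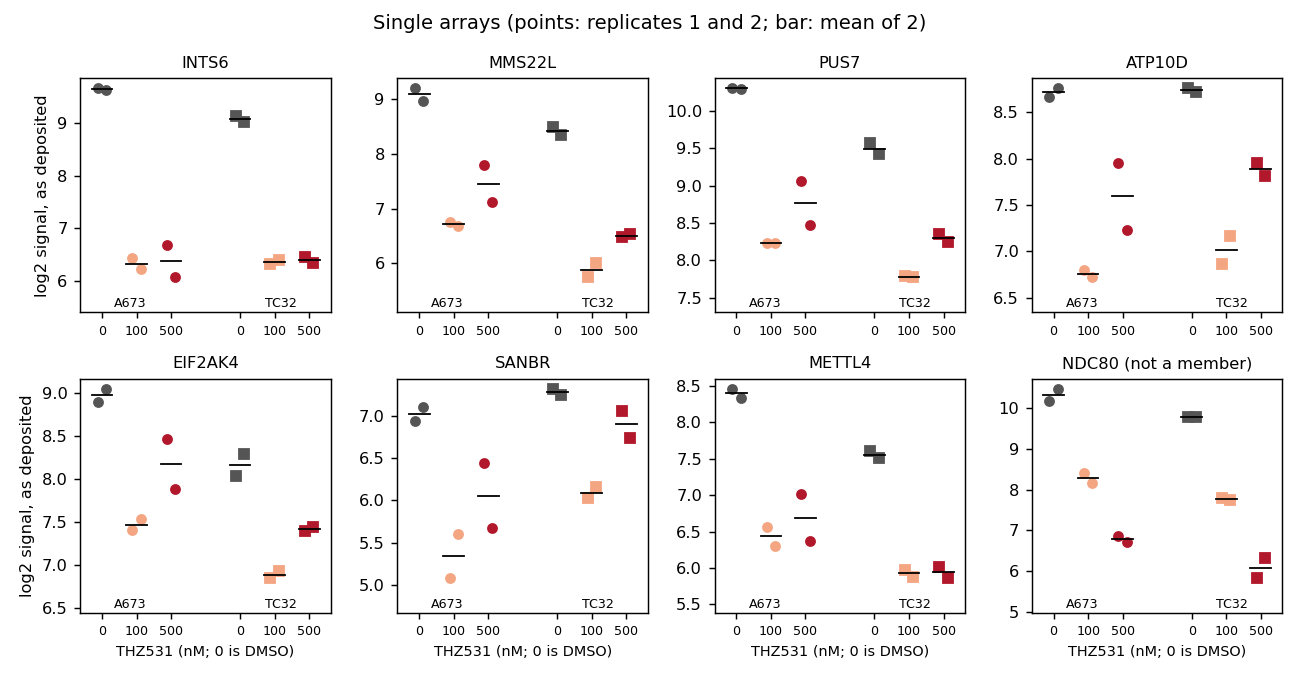
Deposited log2 signal of single arrays (vertical axis) at each dose of THZ531 in nM (horizontal axis, 0 for DMSO), with circles for A673, squares for TC32 and bars for the mean of 2 arrays. INTS6 and METTL4 read about the same at 100 and 500 nM, MMS22L, PUS7, ATP10D, EIF2AK4 and SANBR read higher at 500 nM on every array of both lines, and NDC80, which is not one of the 76 genes, reads lower still.

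RNA and DNA modification gave 3 genes. PUS7, a pseudouridine synthase of tRNA and mRNA, read 10.31 and 10.29 under DMSO in A673, 8.24 and 8.23 at 100 nM and then 9.07 and 8.47 at 500 nM. The TC32 arrays read 9.56 and 9.42, then 7.80 and 7.77, then 8.36 and 8.25. All 3 groups were apart in both lines, the means differed by 0.54 and 0.52 between the doses, and the centred level went from 36.7% to 61.7% of DMSO in A673 and from 35.3% to 76.1% in TC32. The PUS7 promoter is shown as that of a gene with an E-box and a clear return in both lines (RefSeq, GRCh38.p14, chr7:105522222-105522521, minus strand). Capitals mark the E-box (CACGTG) and GC boxes (GGGCGG or CCGCCC).
PUS7: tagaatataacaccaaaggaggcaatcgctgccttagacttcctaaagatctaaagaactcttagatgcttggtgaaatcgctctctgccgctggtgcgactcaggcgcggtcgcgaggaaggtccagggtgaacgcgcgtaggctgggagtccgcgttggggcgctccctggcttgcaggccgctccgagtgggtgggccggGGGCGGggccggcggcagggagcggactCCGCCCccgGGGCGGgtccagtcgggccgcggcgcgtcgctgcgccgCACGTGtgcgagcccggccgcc

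TRMT1L, a relative of the tRNA methyltransferase TRMT1, read 7.05 and 7.61, 5.33 and 5.07, and 5.58 and 4.92 in A673, and 7.61 and 7.68, 4.68 and 4.42, and 4.71 and 5.23 in TC32. All its treated readings were under the filter level. METTL4, an adenine methyltransferase, read 8.46 and 8.33, 6.56 and 6.30, and 7.02 and 6.37 in A673, and 7.61 and 7.51, 5.97 and 5.88, and 6.02 and 5.86 in TC32. Its doses overlapped in both lines.

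METTL4 starts 52 bases from NDC80 on the other strand (RefSeq, GRCh38.p14, chr18:2571456-2571755, minus strand). This promoter is shown because both genes were low at 100 nM and NDC80 alone was lower still at 500 nM. Capitals mark a CCAAT box on the other strand (ATTGG) and a cAMP response element (TGACGTCA).
METTL4: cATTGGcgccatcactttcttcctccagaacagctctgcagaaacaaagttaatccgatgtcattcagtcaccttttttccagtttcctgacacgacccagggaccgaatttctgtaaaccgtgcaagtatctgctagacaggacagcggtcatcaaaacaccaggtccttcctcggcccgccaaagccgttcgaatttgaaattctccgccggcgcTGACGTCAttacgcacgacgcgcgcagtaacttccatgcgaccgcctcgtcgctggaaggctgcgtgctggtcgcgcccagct

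NDC80, a kinetochore protein that binds spindle microtubules, read 10.17 and 10.47 in A673, then 8.42 and 8.17, then 6.86 and 6.73. In TC32 it read 9.78 on both DMSO arrays, then 7.80 and 7.74, then 5.84 and 6.33. Its groups followed the dose without overlap, and it lost a further 1.5 and 1.69 between the doses. The METTL4 means differed by 0.26 and 0.01 between the doses, which overlapped in both lines. In TC32 its means of 5.925 and 5.94 were both just under the filter level of 5.943, and whether low signal limited its fall was not tested.

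The ubiquitin system gave 5 genes. KLHL22, a substrate adaptor of CUL3 ligases, read 7.59 and 7.58, 5.42 and 5.30, and 5.73 and 5.69 in A673, and 7.30 and 7.24, 5.19 and 5.28, and 5.31 and 5.22 in TC32. Its doses were apart in A673 alone, and all treated readings were under the filter level. UBR1, a ligase that recognises N-terminal degrons, was 1.60 and 1.51 under DMSO at 100 nM after centring, and its doses overlapped in both lines. USP33, a deubiquitinase, IPP, a kelch protein, and DZIP3, a RING-type ligase, were 0.79, 0.84 and 0.80 under it in A673 and 0.80, 1.12 and 0.78 in TC32.

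Mitochondrial and metabolic genes, 11 in number, had a median difference between the doses of 0.48 in A673, the largest of the role groups there. In TC32 it was 0.39, where the unassigned genes (0.54), RNA and DNA modification (0.42) and signalling (0.40) had larger ones. The rule used the order of the doses, so this ranking is a description of the chosen genes. ATP10D, a lipid flippase, had the largest mean return of the 76. It read 8.67 and 8.76 under DMSO in A673, 6.80 and 6.72 at 100 nM and then 7.95 and 7.24 at 500 nM. TC32 readings were 8.76 and 8.72, then 6.87 and 7.17, then 7.95 and 7.82. Its groups were apart in both lines, and the centred level went from 39.7% to 82.0% of DMSO in A673 and from 34.9% to 95.7% in TC32.

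XPNPEP3, a mitochondrial aminopeptidase, read 9.14 and 9.05, 7.66 and 7.51, and 8.39 and 7.77 in A673, and 8.74 and 8.39, 6.44 and 6.89, and 7.52 and 7.64 in TC32. LACTB2, a mitochondrial ribonuclease, read 8.92 and 8.66, 7.38 and 7.18, and 8.11 and 7.54 in A673, and 7.81 and 7.52, 5.76 and 6.09, and 6.79 and 6.59 in TC32. PIGM, a mannosyltransferase of GPI anchor synthesis, read 8.62 and 8.63, 7.29 and 7.06, and 8.24 and 7.74 in A673, and 8.73 and 8.58, 7.18 and 7.11, and 7.84 and 7.61 in TC32. In all 3 the doses were apart in both lines with 500 nM still below DMSO. PIGM regained 56.1% of its deposited log2 loss in A673, the most of the 76 there.

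DHTKD1, a dehydrogenase of lysine breakdown, read 8.82 and 8.77, 7.38 and 7.44, and 8.09 and 7.45 in A673, where the lower 500 nM array all but touched the 100 nM arrays. In TC32 it read 8.65 and 8.56, then 7.27 and 7.51, then 8.07 and 8.22, a return of 62.2% of the deposited log2 loss. OMA1, a protease of the inner mitochondrial membrane that cleaves OPA1, was 1.37 and 1.64 under DMSO at 100 nM after centring, with doses apart in both lines. The assembly factors UQCC1 (complex III), SDHAF4 (complex II) and TMEM242 were 0.74, 0.70 and 0.81 under DMSO in A673 and 1.26, 0.85 and 1.27 in TC32. NIT1, an amidase, and SELENOI, which makes phosphatidylethanolamine, were 0.75 and 0.95 under it in A673 and 1.44 and 0.79 in TC32.

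Signalling, receptors and survival gave 12 genes, with median differences between the doses of 0.42 in A673 and 0.40 in TC32. EIF2AK4 encodes GCN2, the kinase that senses uncharged tRNA. It read 8.90 and 9.06 in A673, then 7.41 and 7.53, then 8.47 and 7.88, and 8.04 and 8.29, 6.85 and 6.92, and 7.40 and 7.44 in TC32. It was at or above DMSO at 500 nM in both lines after centring (102% and 103%), although it stayed below DMSO as deposited.

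BCL2L2 encodes BCL-W, which protects cells from apoptosis. It read 9.46 and 9.45 in A673, then 7.70 and 7.60, then 8.38 and 7.75, and 8.47 and 8.14, 6.39 and 6.47, and 6.79 and 6.85 in TC32, with groups apart in both lines. OPN3, an opsin-family receptor, read 9.21 and 9.30, 7.55 and 7.48, and 8.32 and 7.85 in A673, and 10.35 and 10.14, 8.27 and 8.66, and 9.18 and 9.14 in TC32. GPR107, a Golgi membrane protein, read 9.56 and 9.62, 8.21 and 8.18, and 9.03 and 8.38 in A673, and 8.57 and 8.38, 7.44 and 7.15, and 7.75 and 7.96 in TC32. Both were apart in both lines and regained 0.57 and 0.51 in A673 and 0.70 and 0.56 in TC32.

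SH3PXD2A, a scaffold of invadopodia, ARHGEF10, a guanine nucleotide exchange factor, and PPP3CB, a catalytic subunit of calcineurin, were 1.13, 1.17 and 1.11 under DMSO at 100 nM in A673 and 1.49, 1.68 and 0.99 in TC32 after centring, with doses apart in both lines. BMPR2, the type II receptor of bone morphogenetic proteins, and PDE6D, a chaperone of prenylated proteins, were 0.81 and 0.90 under it in A673 and 0.75 and 0.98 in TC32, with doses apart in TC32 alone. EPHA3, an ephrin receptor, and IL10RB, a shared chain of interleukin-10 family receptors, had overlapping doses in both lines. IL10RB read 8.12 and 8.07, 6.81 and 6.46, and 7.05 and 6.53 in A673, and 7.83 and 7.73, 5.67 and 5.81, and 5.79 and 5.71 in TC32.

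Membrane traffic, cilium and nuclear envelope gave 8 genes. IFT81, which carries tubulin into cilia, read 9.93 and 10.11, 8.501 and 8.54, and 9.24 and 8.53 in A673, and 8.65 and 8.56, 6.94 and 6.97, and 7.68 and 7.71 in TC32. In A673 its 500 nM arrays lay on either side of the higher 100 nM array, and in TC32 they lay well above both. LMAN2L, a lectin of the early secretory pathway, NEMP1, of the inner nuclear membrane, and SYTL5, a Rab effector, were 0.85, 0.91 and 0.85 under DMSO at 100 nM in A673 and 1.79, 1.60 and 0.77 in TC32 after centring. VPS50, of an endosome recycling complex, HPS3, of BLOC-2, CC2D2A, of the ciliary transition zone, and TTC17 ranged from 0.70 to 1.05 under DMSO in A673 and from 0.88 to 1.16 in TC32, and their doses overlapped in both lines.

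The remaining 8 genes have no role assigned here. SANBR read 6.95 and 7.11, 5.08 and 5.61, and 6.44 and 5.67 in A673, and 7.33 and 7.25, 6.03 and 6.15, and 7.06 and 6.74 in TC32. It regained 68.0% of its deposited log2 loss in TC32, the most of the 76 there. The A673 readings at 100 nM were under the filter level. FAM120AOS read 8.84 and 8.95, 7.55 and 7.49, and 8.38 and 7.84 in A673, and 8.16 and 7.999, 6.10 on both 100 nM arrays, and 6.74 and 6.89 in TC32. C2orf74 read 7.62 and 7.53, 5.79 and 5.88, and 6.10 and 6.14 in A673, and 7.99 and 8.03, 5.87 and 5.73, and 6.36 and 6.21 in TC32. These 3 had doses apart in both lines, though the C2orf74 readings at 100 nM were all under the filter level. CCDC9B, SEL1L3 and C11orf54 were apart in TC32 alone, and LINC00205, a long non-coding RNA, and ANKRD46 in neither.

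The lines were compared on what the rule did not fix. Under DMSO the rule asked only for a mean of at least 7 in each line. In limma on centred values, 20 of 75 genes were higher in A673 and 22 lower, against 33.7% higher and 21.5% lower among all genes tested. Called in either direction were 42 of the 75 and 55.2% of all, so the genes stood near the background. JADE2 was lower in A673 by 2.48 (SE 0.158, adjusted p = 7.06e-12 in limma), OPN3 by 1.68, RFX5 by 1.35 and C2orf74 by 1.13. EPHA3 was higher in A673 by 1.74 (SE 0.138, adjusted p = 3.36e-10 in limma), LMAN2L by 1.33, TTC17 by 1.33, TTF2 by 1.17 and SYTL5 by 0.95. As deposited, 50 were higher and 4 lower (77.4% and 5.12% of all genes, 82.5% together), with array medians 0.69 higher in A673, and C2orf74 was no longer called (adjusted p = 0.0527 in limma).

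At 100 nM, 66 of the 76 genes were lower against DMSO in TC32 than in A673 after centring, and 38 were so as deposited. Of all 10162 genes tested, 5158 were so after centring and 743 as deposited. In limma on centred values the difference of the 100 nM effects was called for 16 of 75 genes, all deeper in TC32, where 1.78% of all genes were called in this direction and 2.65% in either. The median difference (TC32 minus A673) was -0.39, against -0.004 over all genes. As deposited it was 0.02, against 0.41 over all genes. There 0 of the genes were called in limma (5 at an unadjusted p under 0.05), against 2.32% of all. At an unchanged deposited order, the rule asks for a centred rise between the doses of at least 0.59 in TC32 and 0.21 in A673, and it uses the same 100 nM arrays. The count is therefore a description and not an independent test. It also rested on single arrays: it was 5 and 7 without TC32 DMSO replicate 1 and 2, 6 without TC32 100 nM replicate 1, 6 and 10 without A673 100 nM replicate 1 and 2, and 31 without A673 DMSO replicate 2. For 319 tested genes lower still at 500 nM, 5.96% were called at 100 nM.

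METTL23 had the largest of these differences, at -1.11 (SE 0.188), from centred effects of -1.46 in A673 and -2.56 in TC32. For JADE2 it was -1.10, for FAM120AOS -1.01, for IL10RB -0.99, for GINS1 -0.96 (SE 0.161) and for LMAN2L -0.94. C2orf74, C11orf54, ASF1B and CBX6 followed with -0.89, -0.83, -0.82 and -0.76. The A673 means of JADE2 and C2orf74 at 100 nM were under the filter level, and the part of low readings in their differences was not tested. As deposited, none of these 10 was called, and adjusted p in limma ranged from 0.143 to 0.381.

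At 500 nM the difference between the lines was called for 6 of 75 genes, 2 higher in TC32 and 4 lower, where 3.06% and 6.74% of all genes were called (9.80% together), and the median difference was -0.005. The share is no higher than the background, and the rule used the means of all 3 groups in both lines, so this too is a description. The lower ones were METTL23 (-0.79), IL10RB (-0.76), GTF2H1 (-0.62) and CBX6 (-0.63), and the higher ones were SEL1L3 (0.66) and INTS6 (0.54). The call of INTS6 was lost without any 1 of 9 arrays, with no variance trend and with no filter on low values, that of SEL1L3 without any 1 of 6 arrays and that of GTF2H1 without any 1 of 5. As deposited, 0 genes were called in limma (6 at an unadjusted p under 0.05), against 1.83% of all. The count was 1 without A673 500 nM replicate 1, 3 without replicate 2, 1 without TC32 DMSO replicate 1 and 2 without TC32 500 nM replicate 2.

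**Figure D4:**
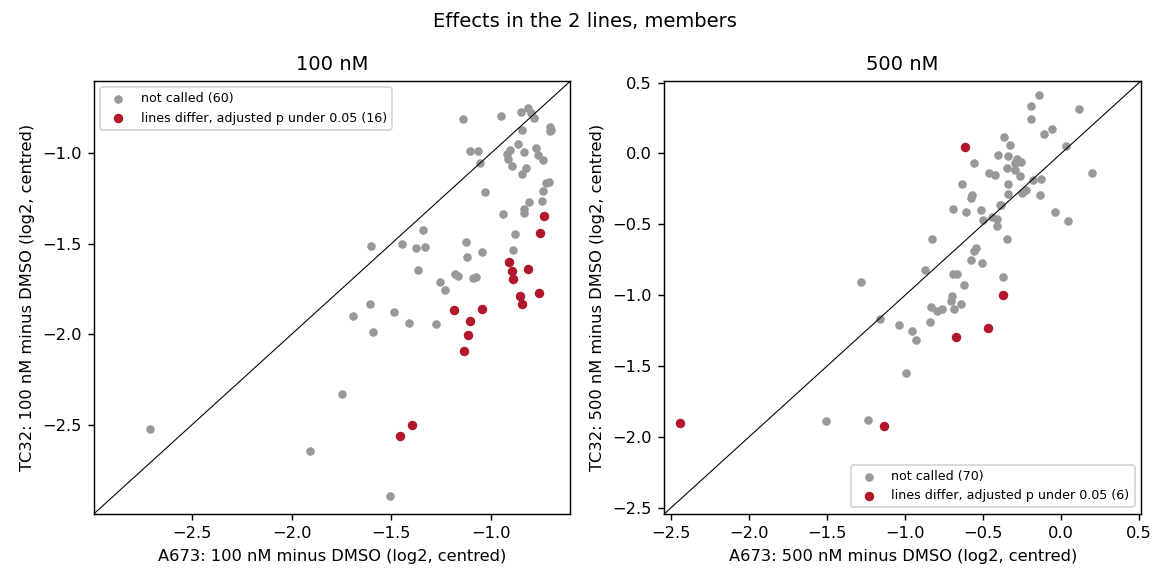
Centred dose minus DMSO difference in A673 (horizontal axis, log2) against TC32 (vertical axis, log2) for 76 genes, at 100 nM on the left and 500 nM on the right, with red points where the difference between the lines was called in limma (TRMT1L, which was not tested, is drawn as not called). At 100 nM, 66 points lie under the line of equal effects and all 16 red ones are among them, and at 500 nM the points lie on both sides of it.

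Lists of genes of the drug's known pathways showed where such genes stood. They were chosen with earlier results of these data known. Of all 7137 genes with a DMSO mean of at least 7 in both lines, 1.06% were among the 76 and 4.51% were lower still at 500 nM. Of 36 DNA damage response and repair genes with a DMSO mean of at least 7 in both lines, 1 (PMS1) was among the 76 and 10 were lower still at 500 nM. Of 34 genes of centrosome, microtubule and cilium, 1 (TUBGCP3) was among the 76 and 7 lower still. Of 42 genes of transcription elongation and RNA polymerase II, 1 (INTS6) was among them and 1 lower still. Of 47 ubiquitin genes, 2 (UBR1 and USP33) were among them and 3 lower still.

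Single members came from the lists of apoptosis regulators (BCL2L2, 1 of 19), stress responses (EIF2AK4, 1 of 22), developmental signalling (BMPR2, 1 of 38), other transcription factors (RFX5, 1 of 62) and tRNA enzymes (PUS7, 1 of 35). Among the lists without a member were G2/M and mitosis (0 of 36), G1/S and replication (0 of 35) and chromatin remodelling (0 of 46). So were cleavage and polyadenylation (0 of 31), splicing (0 of 41) and p53 (0 of 20). Others were membrane traffic (0 of 44), ribosome biogenesis (0 of 44) and nuclear pore (0 of 38). With 1.06% of the 7137 genes among the 76, a list of this size can hold 0 without standing apart, so nothing is read from these counts. The lists hold only part of each pathway: MMS22L, GINS1 and TERF2 are on none of them.

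The 76 genes had a longer median span than those compared with them. By RefSeq spans (GRCh38.p14) the median of the 76 was 51994 bp, with quartiles of 31235 and 99730 bp. The shortest was TINF2 with 3035 bp and the longest EPHA3 with 374514 bp. The median was 43072 bp over the 322 genes lower still at 500 nM and 29792 bp over 7134 genes with a DMSO mean of at least 7 in both lines. Of the 76, 25% spanned over 100000 bp and 11.8% under 10000 bp, against 16.8% and 19.3% of the 322 and 16% and 20.8% of the 7134. The median was 69085 bp over the 26 genes with doses apart in both lines. The differences in span were not tested.

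**Figure D5:**
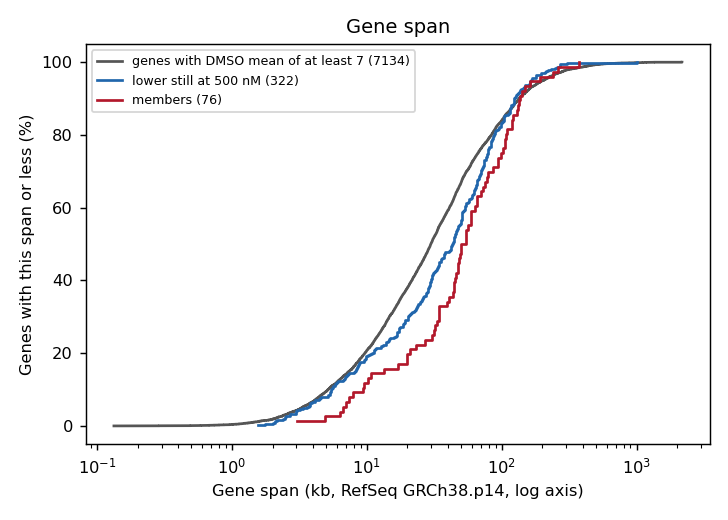
Share of genes in percent (vertical axis) with a span up to the value on the horizontal axis (kb, log axis) for the 76 genes, the 322 lower still at 500 nM and 7134 genes with a DMSO mean of at least 7 in both lines. The curve of the 76 genes lies to the right of both others over most of the range, with medians of 51994, 43072 and 29792 bp.

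Promoters of 300 bases were held for 68 of the 76. Their median GC content was 62.5%, against 63.7% for the genes lower still and 65.7% for genes with a DMSO mean of at least 7. The E-box (CACGTG, which reads the same on both strands) was found in 14 of 68, or 20.6%, against 10.5% of the genes lower still, 11.2% of genes with a DMSO mean of at least 7 and 7.43% of all 27305 RefSeq promoters of this length. The 14 included CBX6, GTF2H1, HPS3, IFT81, INTS6, JADE2, KLHL22, NEMP1, PUS7, TAF12, THAP8, UVSSA and VPS50. They include a gene with a clear return, PUS7, and genes without one, such as INTS6 and VPS50.

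In all, 14 motif strings were searched on both strands, the E-box among them and the AP-1 site entered in both of its forms. The GC box (GGGCGG) was in 67.6% of the 68, against 68.4% of the genes lower still and 72.9% of genes with a DMSO mean of at least 7 (44.6% of all RefSeq promoters), and the CCAAT box (CCAAT) in 36.8%, against 38.2% and 38.2% (35.7% of all). The TATA box (TATAAA) was in 1 of 68, or 1.47%, against 3.64% and 4.96% (12% of all). An ETS core (CCGGAAG) was in 23.5%, against 28.7% and 22.7% (10.7% of all). A pair of GGAA repeats (GGAAGGAA) was in 0, against 4.36% and 3.33% (3.58% of all), and binding of EWS/FLI was not measured. Shares were a description of letters in this window, and with 68 promoters the E-box share was not tested.

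Head-to-head starts within 1000 bases were found for 22 of these 68 genes, or 32.4%, against 32.7% of the genes lower still and 27.0% of genes with a DMSO mean of at least 7. In 12 pairs the partner was measured. One partner, NDC80, met the 100 nM limit of the rule, and 5 lay above DMSO at 100 nM in both lines after centring. So did 62.1% of all genes measured and 49.2% of genes with a DMSO mean of at least 7. Among the 5, HEPACAM2 had DMSO means of only 4.22 and 4.11, under the filter level. At 500 nM, 8 partners were below their 100 nM mean in both lines, and 1, C2orf74-DT, was above it. Of all genes measured, 61.7% were below it and 7.17% at or above it. Of genes with a DMSO mean of at least 7, 81.0% and 6.68% were. C2orf74-DT read 7.72 and 7.66, 6.46 and 6.55, and 7.59 and 6.90 in A673, and 7.32 and 7.09, 5.59 and 5.77, and 6.24 and 6.32 in TC32, with the doses apart in both lines as for C2orf74. ORMDL1, a regulator of sphingolipid synthesis 111 bases from PMS1, lay 0.13 and 0.14 above DMSO at 100 nM after centring, where PMS1 lay 1.59 and 1.99 under it.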

How the data were processed

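RNA of 12 samples was measured on arrays, and the authors deposited 1 table of log2 values. Their normalization is not given in the sources used here, and the submitters' processing notes name MAS5, GRCh37 and hg19 without a role. Of 49395 rows, the 43290 annotated to 1 gene and written with 3 decimals were used. The 2829 rows with 2 decimals were not. Of 17029 genes, 92 that shared their values with another symbol were left out, which left 16937. The rows of a gene repeated 1 set of values in all but 41 of the 17029 genes, for which the row with the highest mean was used. None of the 41 was among the 76, whose transcripts thus cannot be told apart.

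The limma fit (version 3.58.1, R 4.3.3) used 1 mean per group, a variance trend, two-sided tests at an adjusted p (Benjamini-Hochberg) under 0.05, on values centred on each array's median. Genes were tested at or above the 40th percentile of the mean (5.94), which left 10162. Each p-value reflects only the spread of these samples, which may be technical, and 2 arrays a group limit the precision. The fit was tested on simulated data. Tables were made with Python 3.11.15, pandas 2.3.3 and numpy 2.4.6. Same-numbered arrays deviated together in 5 of 15 pairs of groups (correlations from -0.16 to 0.44), so the numbers were not taken as pairs.

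The members and lists were chosen with earlier results of these data known. Named were the 20 genes furthest under DMSO at 100 nM, the 15 with the largest return, genes on a list, those at the rule's edges and up to 10 per contrast between the lines. The other genes of the 76 and their divergent partners were named to account for the genes, after their values were seen. The values of 1 of the 76 genes and 1 list are not reported here. Spans and promoters are RefSeq's (GRCh38.p14), not the build the notes name.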

Additional observations from a re-analysis of the deposited data

Results flagged for a closer look

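A difference in the effect of THZ531 between the lines was called by limma on centred values in 16 comparisons of single genes named above. The means of all groups in both lines were used to choose the genes, so these calls describe them and are not independent tests. At 100 nM the difference (TC32 minus A673, log2) was -1.107 for METTL23, -1.104 for JADE2, -1.015 for FAM120AOS, -0.989 for IL10RB, -0.958 for GINS1, -0.936 for LMAN2L, -0.891 for C2orf74, -0.83 for C11orf54, -0.818 for ASF1B and -0.757 for CBX6. These genes were lower against DMSO in TC32. At 500 nM it was -0.788 for METTL23, -0.761 for IL10RB, -0.626 for CBX6, -0.625 for GTF2H1, 0.659 for SEL1L3 and 0.542 for INTS6, so the last pair was lower against DMSO in A673. Adjusted p ranged from 0.00206 for GINS1 to 0.0442 for INTS6 in limma. Each kept its sign on the values as deposited, where none of them was called. METTL23, IL10RB and CBX6 were called at both doses.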

How the results depend on the processing

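The number of genes found depended on the rule's settings. It was 181 with the order of the doses taken on centred values and 207 with the 100 nM difference taken as deposited. It was 34 and 120 with a limit of -1 and -0.5, 49 with a DMSO mean of at least 8, and 26 with both 500 nM arrays above both 100 nM arrays. Leaving out 1 array gave 46 to 95, with 46 without A673 500 nM replicate 1, and 2 settings chosen after seeing the data gave 61 and 75. As deposited, the counts of genes whose effects differed between the lines were 0 at 100 nM and 0 at 500 nM in limma (5 and 6 at an unadjusted p under 0.05), and 74 genes were lower at 500 nM in TC32. After quantile normalization they were 29 and 15. Without 1 array the 2 counts ran from 5 to 31 and from 1 to 9, those lower at 500 nM from 39 to 61 in A673 and from 40 to 48 in TC32, and those differing under DMSO from 33 to 44. With the replicate block the counts were 42 under DMSO, 19 at 100 nM, 8 at 500 nM, and 56 and 47 lower at 500 nM, and the block changed no call among the 26 single-gene values of contrasts between the lines, for which it was run. Of 442 recomputed values of genes named in contrasts between the lines, 380 kept direction and call, 62 lost the call and 0 reversed, 17 of the 62 as deposited. The causes were not tested. At 100 nM, 18 genes had a mean under the filter level in at least 1 line, and whether low signal limited their falls was not tested.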
